A study of Homo sapiens with 6 samples.

Results

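The genes examined here encode the secreted WNT ligands, their receptors, the antagonists that hold signalling back, and the transcription factors and targets through which the signal acts. Members were taken by name: protein-coding genes whose symbol fits the WNT, FZD, DKK1 to DKK4 or SFRP families, together with 21 named receptors, inhibitors, transcription factors and targets. Of 58 such symbols in GENCODE 29, 39 had a row among the 18677 rows of the count table, and the other 19, among them 10 ligands, were not analysed here. RNA-seq libraries of H1299 cells with the guide RNA hSETDB1 sg1 (SETDB1-KO, n = 3) were set against libraries of H1299 cells with the guide Control sg2 (control, n = 3). H1299 is a long-established line from a human non-small cell lung carcinoma, and both groups were grown with puromycin. SETDB1 is an enzyme that places H3K9me3, a repressive histone mark. Each group rests on 1 guide. Whether the cells were clones or pools, and the replicates separate cultures, is not in the labels. P-values therefore measure only the spread between these samples, which may be technical.

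In the canonical branch of the pathway, a WNT ligand brings a Frizzled (FZD) receptor and LRP5 or LRP6 together. This stops the destruction complex of AXIN, APC and kinases from degrading beta-catenin, which then binds TCF/LEF factors on DNA and switches on target genes. Several targets, such as AXIN2, NKD1, RNF43, ZNRF3 and NOTUM, are themselves inhibitors, so the pathway carries its own feedback. Other branches run through ROR1 and ROR2 and act on cell polarity and migration without beta-catenin.

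The libraries held 29532057 to 34320279 counts in SETDB1-KO cells and 30729681 to 35941288 counts in control cells. Levels are in CPM, the usual depth-scaled unit, with library totals scaled by TMM factors, and 1 count was worth 0.0282 to 0.0334 CPM. SETDB1 mRNA stood at 38.6 ± 2.31 CPM in SETDB1-KO cells and 43.5 ± 1.76 CPM in control cells (SD, n = 3 each), and the log2 fold change, always SETDB1-KO over control and with its SE, was -0.17 ± 0.06 (adjusted p in edgeR = 0.0151). The mRNA of the targeted gene was thus only slightly lower in SETDB1-KO cells, and these counts do not measure the protein. Of 6 carcinoma markers, KRT8, KRT18, VIM and CDH2 were expressed and lower in SETDB1-KO cells, EPCAM was under 1 CPM and KRT19 was not analysed here. Their summed level was 2680 to 2800 CPM in SETDB1-KO cells and 3420 to 3610 CPM in control cells. Lung lineage markers (2 of 6 with a row) summed to 0.664 to 1.05 CPM in SETDB1-KO cells and 0.601 to 0.946 CPM in control cells, with NAPSA higher and NKX2-1 lower in SETDB1-KO cells (log2 fold changes 1.48 and -0.99, adjusted p in edgeR = 0.00442 and 0.00945). Leukocyte markers (2 of 5 with a row) summed to 0.982 to 1.32 CPM in SETDB1-KO cells and 0.221 to 0.434 CPM in control cells, endothelial markers (1 of 3) to 0.0578 to 0.0667 and 0.282 to 0.378 CPM, and fibroblast markers (3 of 5) to 1.13 to 1.39 and 1.7 to 1.84 CPM in the same order of groups.

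The comparison asks how the components of WNT signalling differ when SETDB1 is targeted. All 4 TCF/LEF factor genes and the WNT target SP5 fell, as did the most abundant ligand gene WNT5B, the antagonist gene SFRP1 and the receptor gene ROR2. Among the TCF/LEF genes, the TCF7 call was lost in 6 of 15 alternatives, and TCF7L2 was no longer called once the change of its chromosomal neighbours was taken out. The ligand genes WNT10A, WNT9A and WNT16, the receptor gene FZD8 and the dishevelled-binding inhibitors NKD1 and NKD2 rose at least 2-fold. WNT10A and NKD1 reached the level of the low-count filter only in SETDB1-KO cells, and SP5 only in control cells. Calls on WNT10A, NKD1 and SP5 therefore count for little. The co-receptor genes LRP5 and LRP6 and the scaffold gene AXIN1 did not pass the test.

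A filter on low counts kept 38 of the 39 members, and RNF43 was removed. Of these 38, 33 cleared the filter's count level in both groups, WNT10A and NKD1 did so only in SETDB1-KO cells, and WNT7B, SP5 and NOTUM only in control cells. The filter favours such genes when they are higher in that group, so a call on them counts for little. Of these 5, NOTUM was not called, while WNT10A, NKD1, WNT7B and SP5 were called and changed at least 2-fold. By edgeR's quasi-likelihood test with Benjamini-Hochberg adjustment over all genes, 14 members were higher and 19 lower in SETDB1-KO cells. These 33 calls were 86.8% of the members tested, beside 63.5% of all 17675 genes tested. Higher calls made up 36.8% of the members and 31.9% of all genes, and lower calls 19 of 38 members and 31.6% of all genes. Among the called members, 6 rose and 7 fell at least 2-fold, together 34.2% of those tested beside 12.9% of all genes (7.14% higher and 5.78% lower). The 3 libraries of one group did not overlap those of the other for 33 members, 86.8% of those tested, beside 66.8% of all genes. The median log2 fold change was -0.22 over the members tested and 0.01 over all genes tested, and the median size of change without its sign was 0.77 and 0.33. In bulk RNA, fewer cells expressing a gene and less RNA per cell cannot be told apart. Among the 3 control libraries, replicate 1 had the highest level for 27 of the 38 members (71.1%) and for 35.1% of all genes tested; its part in the results was not tested beyond leaving it out, which gave 15 higher and 17 lower members.

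**Figure D1:**
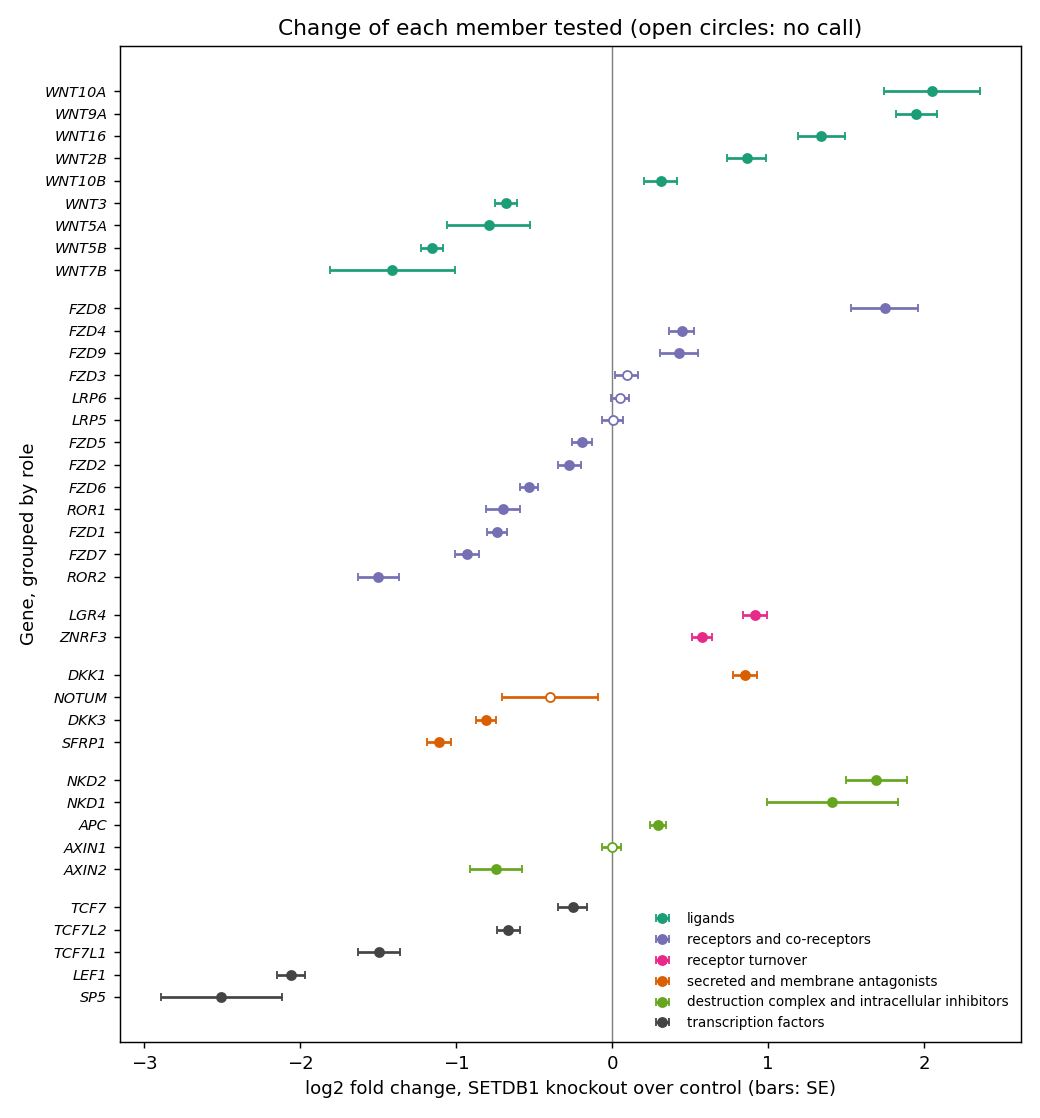
The log2 fold change (SETDB1 knockout over control) of the 38 members tested is shown on the horizontal axis with its SE, grouped by role; filled circles passed the edgeR threshold and open circles did not. The 5 transcription factor genes all lie to the left of 0, from -0.25 to -2.51, while ligands and receptors lie on both sides.

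Among the ligands, 9 of 19 symbols had a row, and all 9 passed the test, 5 higher and 4 lower. Of all genes tested, 63.5% were called, 31.9% higher and 31.6% lower. WNT10A cleared the count filter only in SETDB1-KO cells and WNT7B only in control cells. The 3 largest rises were in genes under 2 CPM in control cells. WNT10A, which encodes a ligand known from teeth, hair and skin, (ENSG00000135925) lies on GRCh38 chromosome 2 (218880363 to 218899581). It had 0.933, 1.16 and 0.761 CPM in SETDB1-KO cells, against 0.267, 0.158 and 0.254 CPM in control cells. Every knockout library was above every control library, and the log2 fold change was 2.05 ± 0.31 (SE; adjusted p in edgeR = 7.67e-06), from 94 counts in the knockout group and 22 in the control group. WNT9A, a ligand gene known from joint development (ENSG00000143816, chromosome 1, 227918656 to 227947898), had 5.07, 5.98 and 5.91 CPM in SETDB1-KO cells, against 1.57, 1.26 and 1.55 CPM in control cells. Its groups were far apart, with a log2 fold change of 1.95 ± 0.13 (adjusted p in edgeR = 1.41e-10). WNT16 (ENSG00000002745, chromosome 7, 121325367 to 121341104), known for its part in bone, had 3.33, 3.76 and 3.34 CPM in SETDB1-KO cells, against 1.54, 1.10 and 1.47 CPM in control cells (log2 fold change 1.34 ± 0.15, adjusted p in edgeR = 1.74e-07), again without overlap.

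The promoter windows of the ligand genes with the largest rises are shown as the RefSeq table for GRCh38.p14 gives them, from 250 bases before the start to 50 after it, written 5′ to 3′ on the gene's strand. WNT10A is at chr2:218880602-218880901 (plus strand) and WNT9A at chr1:227947883-227948182 (minus strand). Capitals, where present, mark a match to the core site of TCF/LEF factors, CTTTGAT or CTTTGAA, on either strand.
WNT10A: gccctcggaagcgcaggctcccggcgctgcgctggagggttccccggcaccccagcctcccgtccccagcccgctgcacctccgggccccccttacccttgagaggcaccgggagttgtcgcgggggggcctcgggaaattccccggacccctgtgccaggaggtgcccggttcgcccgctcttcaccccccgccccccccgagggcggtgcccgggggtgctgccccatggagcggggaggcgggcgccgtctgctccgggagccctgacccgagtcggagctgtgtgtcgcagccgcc
WNT9A: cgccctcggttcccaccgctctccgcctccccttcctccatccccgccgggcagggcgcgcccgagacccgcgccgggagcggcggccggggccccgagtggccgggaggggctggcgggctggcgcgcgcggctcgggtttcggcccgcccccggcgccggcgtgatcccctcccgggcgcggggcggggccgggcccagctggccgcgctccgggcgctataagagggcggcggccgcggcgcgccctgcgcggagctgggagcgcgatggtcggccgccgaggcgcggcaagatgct
Neither window holds a match. The WNT9A window holds 53 CpG dinucleotides and the WNT10A window 30, against a median of 25 over the 16213 windows of genes tested here.

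WNT2B and WNT10B also rose, by smaller amounts. WNT2B averaged 4.78 ± 0.44 CPM in SETDB1-KO cells and 2.63 ± 0.306 CPM in control cells (SD, n = 3 each; log2 fold change 0.86 ± 0.12, adjusted p in edgeR = 5.02e-06). Exons of ST7L on the other strand cover 21.2% of the WNT2B exon length, and since no source used here gives the strand setting of the counting, reads of the pair may be mixed; ST7L itself had a log2 fold change of 0.33. WNT10B averaged 6.05 ± 0.441 CPM in SETDB1-KO cells and 4.90 ± 0.592 CPM in control cells, at a log2 fold change of 0.31 ± 0.11 (adjusted p in edgeR = 0.016). That call was lost without SETDB1-knockout replicate 3 (0.27, adjusted p in edgeR = 0.0772) and without control replicate 3 (0.21, adjusted p in edgeR = 0.107).

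The ligand genes that fell included the most abundant one per length. WNT5B, a ligand of the branches that act without beta-catenin (ENSG00000111186, chromosome 12, 1529891 to 1647243), had 38.6, 38.5 and 39.3 CPM in SETDB1-KO cells, against 97.9, 85.1 and 76.8 CPM in control cells. The knockout libraries were nearly equal and all below the control libraries (log2 fold change -1.16 ± 0.07, adjusted p in edgeR = 2.34e-11). WNT7B (ENSG00000188064, chromosome 22, 45920362 to 45977129), known from lung development, had few counts, with 0.233, 0.202 and 0.0878 CPM in SETDB1-KO cells, against 0.601, 0.315 and 0.480 CPM in control cells. Its 17 counts in the knockout group and 45 in the control group gave a log2 fold change of -1.41 ± 0.40 (adjusted p in edgeR = 0.00446). WNT3, a canonical ligand gene, averaged 11.6 ± 0.226 CPM in SETDB1-KO cells and 18.6 ± 1.24 CPM in control cells (log2 fold change -0.68 ± 0.07, adjusted p in edgeR = 8.01e-08). WNT5A, the paralog of WNT5B, stood at only 0.475 ± 0.0138 CPM in SETDB1-KO cells and 0.835 ± 0.211 CPM in control cells, with a log2 fold change of -0.79 ± 0.27 (adjusted p in edgeR = 0.0138). The WNT5A call was lost without control replicate 1 (-0.70, adjusted p in edgeR = 0.0503), without control replicate 2 (-0.67, adjusted p in edgeR = 0.0722) and with DESeq2 (-0.80, adjusted p = 0.0579).

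Per kb of exon, the 9 ligand genes summed to 17.2 ± 0.13 CPM per kb in SETDB1-KO cells and 27.5 ± 2.89 CPM per kb in control cells (SD, n = 3 each). WNT5B held 52.3 ± 0.455% of that sum in SETDB1-KO cells and 73.0 ± 1.37% in control cells. WNT3 came next with 15.5 ± 0.292% in SETDB1-KO cells and 15.7 ± 1.43% in control cells, a difference within the spread of the control libraries. WNT9A held 8.25 ± 0.687% in SETDB1-KO cells and 1.34 ± 0.214% in control cells. An exact two-sided permutation test of the sum gave p = 0.1, the smallest that 3 libraries against 3 can give.

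**Figure D2:**
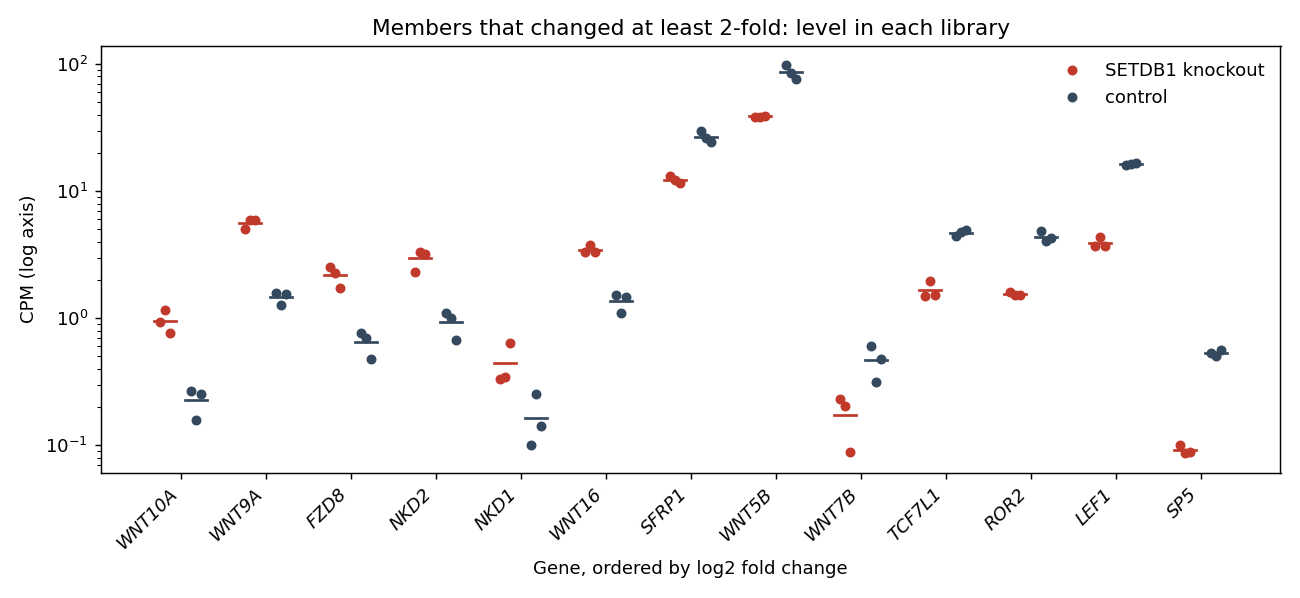
The level of the 13 members that changed at least 2-fold is shown in CPM on a log axis, 1 point per library with the group mean as a line, SETDB1 knockout to the left of control for each gene. The knockout and control points do not overlap for any of the 13 genes, which were picked for their change in these same libraries. That separation is therefore no added evidence, and WNT10A, NKD1, WNT7B and SP5 cleared the count filter in 1 group only. WNT5B is the most abundant of the 13 in CPM and SP5 the scarcest in SETDB1-KO cells.

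Of 13 receptor and co-receptor genes tested, 3 were higher, 7 lower and 3 not called. Calls were thus 76.9% of this class, beside 63.5% of all genes tested. FZD6, the FZD gene with the highest level per kb (ENSG00000164930, chromosome 8, 103298433 to 103332866), had 115.6, 118.5 and 110.4 CPM in SETDB1-KO cells, against 178, 162 and 158 CPM in control cells. It fell in every knockout library relative to every control library (log2 fold change -0.53 ± 0.06, adjusted p in edgeR = 7.91e-08). FZD1 averaged 33.3 ± 0.318 CPM in SETDB1-KO cells and 55.7 ± 5.48 CPM in control cells, a log2 fold change of -0.74 ± 0.06 (adjusted p in edgeR = 5.80e-09). FZD7, a receptor often raised in tumours, averaged 9.89 ± 0.314 CPM in SETDB1-KO cells and 18.9 ± 1.57 CPM in control cells (log2 fold change -0.93 ± 0.08, adjusted p in edgeR = 2.27e-09). FZD2 and FZD5 fell by less, with log2 fold changes of -0.27 ± 0.07 and -0.19 ± 0.07 (adjusted p in edgeR = 0.00325 and 0.0146). The FZD5 call was lost without control replicate 1 (-0.13, adjusted p in edgeR = 0.101).

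FZD8 went the other way. It had 2.53, 2.25 and 1.73 CPM in SETDB1-KO cells, against 0.767, 0.694 and 0.480 CPM in control cells, and the groups did not overlap. Its log2 fold change was 1.75 ± 0.21 (adjusted p in edgeR = 6.41e-07; ENSG00000177283, chromosome 10, 35638249 to 35642278). FZD4 and FZD9 rose by 0.45 ± 0.08 and 0.43 ± 0.12 on the log2 scale (adjusted p in edgeR = 6.68e-05 and 0.00488). Exons of PRSS23 on the opposite strand cover 18.9% of the FZD4 exon length, and PRSS23 had a log2 fold change of -0.35. FZD3 averaged 28.3 ± 2.11 CPM in SETDB1-KO cells and 26.6 ± 2.32 CPM in control cells, a difference within the spread (adjusted p in edgeR = 0.267).

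Per kb, the order of the FZD genes was led by FZD6 and then FZD2 in both groups, at 28.2 ± 1.01 and 17.9 ± 0.546 CPM per kb in SETDB1-KO cells and 40.9 ± 2.53 and 21.7 ± 2.90 CPM per kb in control cells. FZD1 followed in both groups, at 4.79 ± 0.0457 CPM per kb in SETDB1-KO cells and 7.99 ± 0.786 CPM per kb in control cells. FZD5 stood above FZD7 in SETDB1-KO cells (3.50 ± 0.0693 and 2.56 ± 0.0814 CPM per kb), whereas in control cells FZD7 had the higher mean (4.89 ± 0.408 and 4.005 ± 0.312 CPM per kb for FZD7 and FZD5). Levels of FZD4 and FZD9 were within each other's spread in both groups, at 1.74 ± 0.0967 and 1.73 ± 0.184 CPM per kb in SETDB1-KO cells and 1.28 ± 0.0958 and 1.30 ± 0.122 CPM per kb in control cells. FZD8 was last in both, at 0.539 ± 0.102 CPM per kb in SETDB1-KO cells and 0.161 ± 0.037 CPM per kb in control cells. The 9 genes summed to 63.1 ± 1.03 CPM per kb in SETDB1-KO cells and 84.1 ± 7.27 CPM per kb in control cells (exact two-sided permutation test p = 0.1, the smallest possible).

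The ROR receptor tyrosine kinases, which bind WNT5A and act outside the beta-catenin branch, both fell. ROR2 (ENSG00000169071, chromosome 9, 91563091 to 91950162) had 1.60, 1.53 and 1.52 CPM in SETDB1-KO cells, against 4.87, 4.04 and 4.26 CPM in control cells. The groups were well separated, with a log2 fold change of -1.498 ± 0.13 (adjusted p in edgeR = 7.43e-09). ROR1 averaged 7.08 ± 0.514 CPM in SETDB1-KO cells and 11.5 ± 2.15 CPM in control cells (log2 fold change -0.70 ± 0.11, adjusted p in edgeR = 1.73e-05). The LRP co-receptor genes did not pass the test: LRP6 averaged 129 ± 7.12 CPM in SETDB1-KO cells and 125 ± 5.68 CPM in control cells, and LRP5 73.5 ± 0.811 and 73.4 ± 9.12 CPM in the same order. Their log2 fold changes were 0.05 ± 0.06 and 0.00333 ± 0.07 (adjusted p in edgeR = 0.45 and 0.97).

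LGR4 and ZNRF3, which act against each other on receptor turnover, both rose. LGR4 encodes an R-spondin receptor that protects FZD proteins from removal, and ZNRF3 and RNF43 encode the ubiquitin ligases that remove them. LGR4 (ENSG00000205213, chromosome 11, 27365961 to 27472775) had 29.2, 35.0 and 31.0 CPM in SETDB1-KO cells, against 18.8, 15.6 and 16.3 CPM in control cells (log2 fold change 0.91 ± 0.08, adjusted p in edgeR = 3.77e-09). All its knockout libraries were above all control libraries. ZNRF3 averaged 24.8 ± 0.454 CPM in SETDB1-KO cells and 16.7 ± 1.04 CPM in control cells, a log2 fold change of 0.58 ± 0.07 (adjusted p in edgeR = 2.14e-07). RNF43 had 13, 17 and 9 counts in SETDB1-KO cells, against 8, 3 and 6 counts in control cells, and its groups overlapped in CPM. With no filter on low counts its log2 fold change was 1.15 (adjusted p in edgeR = 0.0274). A same-strand protein-coding gene model overlaps 57.6% of the RNF43 exon length, so its counts are uncertain.

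Of 4 antagonist genes tested, 1 was higher, 2 were lower and 1 was not called. Calls were thus 75.0% of these few genes, beside 63.5% of all genes tested. DKK1 (ENSG00000107984, chromosome 10, 52314296 to 52318042), which encodes a secreted protein that blocks LRP5 and LRP6, averaged 18.01 ± 0.83 CPM in SETDB1-KO cells and 9.99 ± 0.846 CPM in control cells (log2 fold change 0.85 ± 0.08, adjusted p in edgeR = 7.80e-09). DKK3, a divergent relative of DKK1 with the highest level per kb among the antagonists, had 44.4, 45.4 and 44.8 CPM in SETDB1-KO cells, against 87.0, 77.9 and 71.0 CPM in control cells. It was lower in every knockout library (log2 fold change -0.81 ± 0.06, adjusted p in edgeR = 1.30e-09). SFRP1, which encodes a secreted protein that binds WNT ligands (ENSG00000104332, chromosome 8, 41261958 to 41309497), had 13.3, 12.2 and 11.5 CPM in SETDB1-KO cells, against 29.6, 26.0 and 24.3 CPM in control cells. These groups did not overlap either, and the log2 fold change was -1.11 ± 0.08 (adjusted p in edgeR = 2.57e-10). NOTUM, which encodes an enzyme that removes the lipid of WNT ligands, had 37 counts in the knockout group and 48 in the control group and did not pass the test (log2 fold change -0.40 ± 0.31, adjusted p in edgeR = 0.272).

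Per kb, DKK1, DKK3 and SFRP1 summed to 19.6 ± 0.522 CPM per kb in SETDB1-KO cells and 25.7 ± 2.47 CPM per kb in control cells (exact two-sided permutation test p = 0.1, the smallest possible). DKK1 made up 41.6 ± 0.845% of the sum in SETDB1-KO cells and 17.7 ± 0.909% in control cells, while DKK3 made up 45.2 ± 1.09% and 60.5 ± 0.855% in the same order of groups.

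Inside the cell, both NKD inhibitor genes rose and AXIN2 fell. NKD2, which encodes a protein that binds dishevelled (ENSG00000145506, chromosome 5, 1008829 to 1038943), had 2.30, 3.35 and 3.22 CPM in SETDB1-KO cells, against 1.10, 1.01 and 0.678 CPM in control cells. The groups did not overlap, and the log2 fold change was 1.69 ± 0.20 (adjusted p in edgeR = 2.86e-07). Its paralog NKD1 (ENSG00000140807, chromosome 16, 50548330 to 50649249) was scarce, with 0.333, 0.347 and 0.644 CPM in SETDB1-KO cells, against 0.100, 0.252 and 0.141 CPM in control cells. The 44 counts in the knockout group and 16 in the control group gave a log2 fold change of 1.41 ± 0.42 (adjusted p in edgeR = 0.00629). Without SETDB1-knockout replicate 3, which had the highest level, it was 1.03 and not called (adjusted p in edgeR = 0.0666). AXIN2, a widely used readout of canonical signalling, averaged 1.38 ± 0.197 CPM in SETDB1-KO cells and 2.30 ± 0.317 CPM in control cells. It fell by 0.74 ± 0.17 on the log2 scale (adjusted p in edgeR = 6.82e-04), and a same-strand gene model overlaps 25.2% of its exon length.

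Of the 2 destruction complex genes in the rule besides AXIN2, APC rose and AXIN1 was not called. AXIN1, the most abundant of these 5 inhibitors per kb, had 30.4, 31.4 and 31.8 CPM in SETDB1-KO cells, against 33.0, 31.9 and 28.8 CPM in control cells. The libraries of both groups were interspersed, and the log2 fold change of -0.00142 ± 0.06 did not pass the test (adjusted p in edgeR = 0.986). APC averaged 48.0 ± 0.518 CPM in SETDB1-KO cells and 39.1 ± 0.88 CPM in control cells, a rise of 0.29 ± 0.05 on the log2 scale (adjusted p in edgeR = 6.41e-05).

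The transcription factor genes were lower in SETDB1-KO cells, 5 of 5, beside 31.6% of all genes tested, with a median log2 fold change of -1.49 against 0.01 over all genes. SP5 was 1 of the 5 and cleared the count filter only in control cells. LEF1, a factor that binds beta-catenin and is itself a WNT target (ENSG00000138795, chromosome 4, 108047545 to 108168956), had 3.70, 4.36 and 3.72 CPM in SETDB1-KO cells, against 16.05, 16.4 and 16.7 CPM in control cells. The groups stood far apart relative to their spread, with 389 counts in the knockout group and 1594 in the control group (log2 fold change -2.06 ± 0.09, adjusted p in edgeR = 1.02e-13). TCF7L1, often a repressor of WNT targets (ENSG00000152284, chromosome 2, 85133410 to 85310388), had 1.5, 1.97 and 1.52 CPM in SETDB1-KO cells, against 4.404, 4.76 and 4.91 CPM in control cells. Its libraries did not overlap either (log2 fold change -1.49 ± 0.13, adjusted p in edgeR = 7.92e-09).

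TCF7L2 (ENSG00000148737, chromosome 10, 112950250 to 113167678), the most abundant TCF/LEF factor gene per kb in both groups, had 13.1, 16.1 and 14.5 CPM in SETDB1-KO cells, against 22.2, 23.8 and 23.4 CPM in control cells. It fell by 0.67 ± 0.07 on the log2 scale (adjusted p in edgeR = 1.49e-07), on a part of chromosome 10 whose other genes were also lower, as the neighbour medians show. TCF7 averaged 5.25 ± 0.209 CPM in SETDB1-KO cells and 6.25 ± 0.195 CPM in control cells (log2 fold change -0.25 ± 0.09, adjusted p in edgeR = 0.0227). The TCF7 call was lost without SETDB1-knockout replicate 1 (-0.24, adjusted p in edgeR = 0.0518), without SETDB1-knockout replicate 3 (-0.24, adjusted p in edgeR = 0.0729), without control replicate 3 (-0.23, adjusted p in edgeR = 0.0646), with library size alone (-0.21, adjusted p in edgeR = 0.0581), with DESeq2 (-0.25, adjusted p = 0.0858) and in the test against a fold of 1.5.

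SP5, a WNT target gene that encodes a zinc finger factor of the SP family (ENSG00000204335, chromosome 2, 170715351 to 170718078), was read at only 3 counts in each SETDB1-knockout library, against 16, 16 and 20 counts in the control libraries. In CPM these were 0.1000, 0.0867 and 0.0878 in SETDB1-KO cells and 0.534, 0.505 and 0.565 in control cells. It fell by 2.51 ± 0.39 on the log2 scale, the steepest change of the 38 members tested (adjusted p in edgeR = 1.20e-05).

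The windows of SP5 (chr2:170715087-170715386, plus strand) and LEF1 (chr4:108166252-108166551, minus strand) are shown for the 2 steepest falls. That of DKK1 (chr10:52314031-52314330, plus strand) is shown because, among the members' windows scanned, it is the only other one with a TCF/LEF match. This choice was made after the sequence was seen. The LEF1 window of the RefSeq table, like that of WNT10A, lies inside the span that GENCODE gives the gene.
SP5: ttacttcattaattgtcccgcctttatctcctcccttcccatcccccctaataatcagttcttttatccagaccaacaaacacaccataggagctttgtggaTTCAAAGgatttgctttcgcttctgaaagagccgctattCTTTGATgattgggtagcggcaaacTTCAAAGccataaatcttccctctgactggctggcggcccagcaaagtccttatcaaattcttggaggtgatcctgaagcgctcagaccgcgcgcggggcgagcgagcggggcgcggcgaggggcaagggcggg
LEF1: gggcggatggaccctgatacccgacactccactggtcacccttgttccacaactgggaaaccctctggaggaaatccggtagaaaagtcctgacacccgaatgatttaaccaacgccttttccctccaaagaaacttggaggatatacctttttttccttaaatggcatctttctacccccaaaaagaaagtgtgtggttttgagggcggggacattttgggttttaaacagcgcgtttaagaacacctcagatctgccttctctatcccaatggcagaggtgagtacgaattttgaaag
DKK1: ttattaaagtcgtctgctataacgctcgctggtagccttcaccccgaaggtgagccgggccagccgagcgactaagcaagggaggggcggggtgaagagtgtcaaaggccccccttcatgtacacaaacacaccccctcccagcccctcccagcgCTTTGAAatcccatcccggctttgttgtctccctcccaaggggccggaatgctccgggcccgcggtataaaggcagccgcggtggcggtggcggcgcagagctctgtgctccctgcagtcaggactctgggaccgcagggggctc
The SP5 window holds 3 matches, which begin 148, 109 and 84 bases before the start, and of which the middle one reads CTTTGAT. Both outer ones are the other core, CTTTGAA, on the opposite strand, so that the strand shown spells TTCAAAG. The DKK1 window holds 1, CTTTGAA, 95 bases before the start, and the LEF1 window holds none. Windows were matched by symbol for 26 of the 39 members, with 34 windows in all, of which 5.88% held a TCF/LEF match, beside 4.35% of the 16213 windows of genes tested. The GC box GGGCGG, on either strand, was in 64.7% of the members' windows and in 65.1% of those of genes tested. Median CpG counts were 30 for the 13 windows of members called higher and 22 for the 17 of members called lower, whereas the observed over expected CpG ratio was 0.725 and 0.776 and the GC content 68.0% and 63.7% in the same order.

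Summed per kb, the 4 TCF/LEF factor genes reached 3.79 ± 0.362 CPM per kb in SETDB1-KO cells and 8.18 ± 0.235 CPM per kb in control cells (SD, n = 3 each), a ratio of 0.463 (exact two-sided permutation test p = 0.1, the smallest possible). LEF1 made up 19.3 ± 0.524% of the sum in SETDB1-KO cells and 37.4 ± 0.414% in control cells. TCF7L2 made up 57.0 ± 1.15% and 42.0 ± 0.557% in the same order, and TCF7 13.8 ± 0.807% and 7.60 ± 0.259%. LRP5 and LRP6 together summed to 24.4 ± 0.805 CPM per kb in SETDB1-KO cells and 24.0 ± 2.03 CPM per kb in control cells, and the exact permutation test gave p = 0.7.

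**Figure D3:**
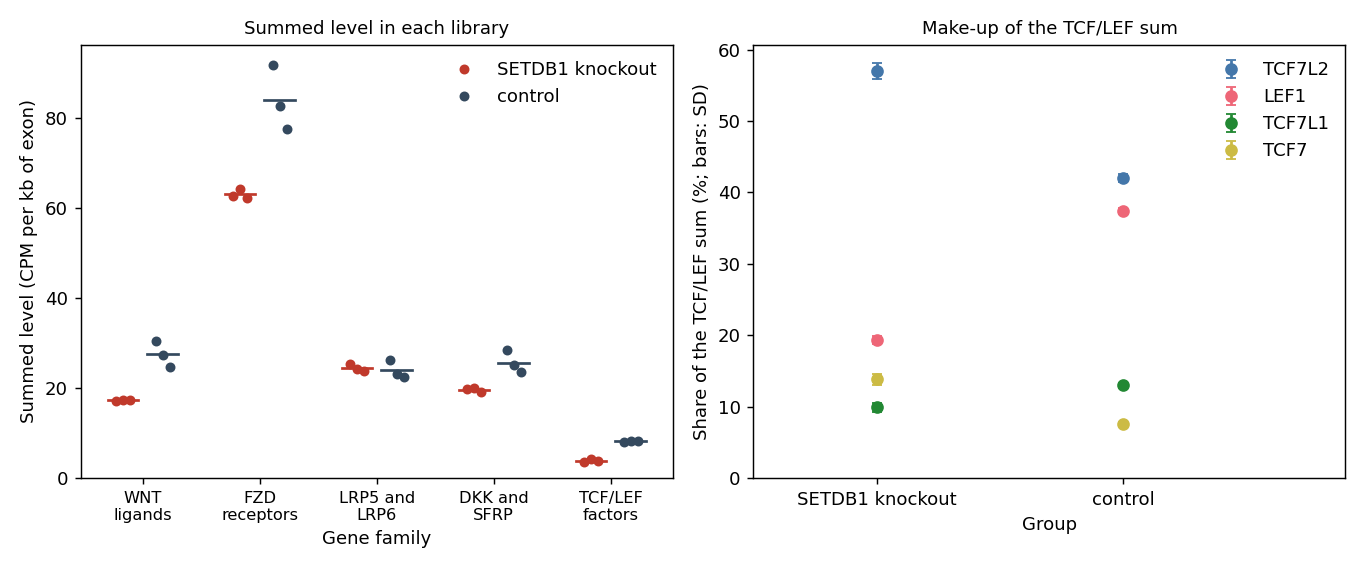
Left, the summed level of each family in CPM per kb of exon, 1 point per library with the group mean as a line; right, the share of each TCF/LEF gene in the TCF/LEF sum, as the mean with its SD over 3 libraries. The SETDB1-knockout points lie below the control points for ligands, FZD receptors, DKK and SFRP antagonists and TCF/LEF factors, and among them for LRP5 and LRP6; LEF1 holds 19.3% of the TCF/LEF sum in SETDB1-KO cells and 37.4% in control cells.

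Each member was set beside the median log2 fold change of up to 25 expressed genes on each side. These medians ran from -0.54 to 0.32, and for 8 of 38 members they lay beyond 0.25 in size. For 34 of 38 the member's own change was larger in size than the median of its neighbours, and 16 of the 33 called members had the opposite sign. A median over many genes varies less than a single gene does, and the same counts were not taken over all genes tested. They therefore do not set the members apart from other genes. The 2 neighbour medians farthest from 0 were on chromosome 10. TCF7L2 had neighbours at -0.54, and once that median was subtracted it stood at -0.12 and was no longer called (adjusted p in edgeR = 0.161). DKK1 had neighbours at -0.53 but rose itself, and taking the median out raised its log2 fold change to 1.38 (adjusted p in edgeR = 7.77e-12). For FZD4 the same step gave 0.70 in place of 0.45, for FZD5 -0.34 in place of -0.19, and for APC 0.18 in place of 0.29, with the calls kept (adjusted p in edgeR = 3.89e-07, 1.68e-04 and 0.00649). AXIN1, with neighbours at 0.23, passed the test at -0.23 (adjusted p in edgeR = 0.00349). LEF1 and SP5 stood at -1.97 and -2.34 and kept their calls (adjusted p in edgeR = 2.27e-13 and 3.99e-05).

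**Figure D4:**
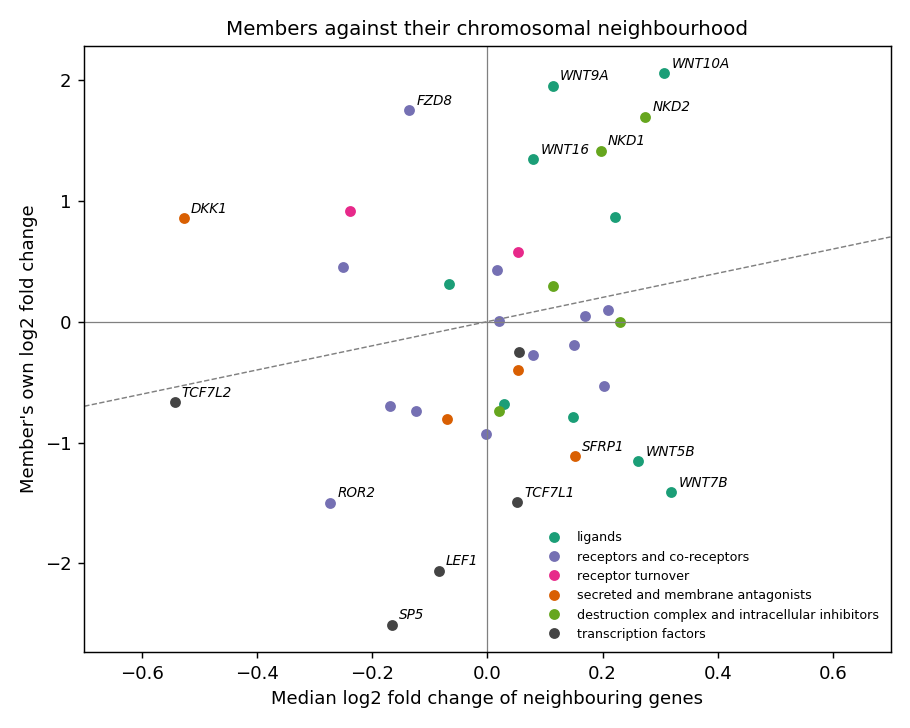
Each of the 38 members tested is plotted by the median log2 fold change of its neighbouring genes (horizontal) and its own log2 fold change (vertical), SETDB1 knockout over control; the dashed line marks equal change. TCF7L2 (-0.54 and -0.67) lies close to the line, DKK1 (-0.53 and 0.85) lies far above it, and LEF1 and SP5 lie far below it.

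A further list of WNT pathway genes, outside the rule, held 92 genes with a row, of which 90 were tested. It held 30 that were higher (33.3%), 42 that were lower (46.7%) and 18 with no call, with a median log2 fold change of -0.02; the same shares over all genes tested are 31.9% and 31.6%. Of the 90, 5 cleared the count filter only in SETDB1-KO cells, TLE4 among them, and 4 only in control cells, BAMBI among them. A call on such genes counts for little, and DACT3, EPHB3 and FGF18 among them were not called. With the neighbourhood median taken out, 12 of the 72 calls were lost and 7 of the 18 genes without a call gained one. PLAUR turned from a lower call at -0.31 to a higher call at 0.57 (adjusted p in edgeR = 4.67e-07). CTNNB1, which encodes beta-catenin, averaged 226 ± 6.98 CPM in SETDB1-KO cells and 196.5 ± 7.94 CPM in control cells, a log2 fold change of 0.20 ± 0.05 (adjusted p in edgeR = 0.00243) that was 0.10 and not called with the neighbourhood median taken out (adjusted p in edgeR = 0.11). WLS, the carrier that takes WNT ligands to the cell surface, averaged 240.1 ± 12.8 CPM in SETDB1-KO cells and 233 ± 16.0 CPM in control cells and did not pass the test (log2 fold change 0.04, adjusted p in edgeR = 0.575), but did at 0.19 with the neighbourhood median taken out (adjusted p in edgeR = 0.00958).

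TLE4, which encodes a co-repressor that binds TCF/LEF factors, showed the largest rise of the 90, with 4.499, 4.39 and 4.54 CPM in SETDB1-KO cells, against 0.134, 0.0946 and 0.226 CPM in control cells (log2 fold change 4.82 ± 0.22, adjusted p in edgeR = 3.22e-13). Its control libraries held 15 counts in all, under the filter. ID2, an inhibitor of bHLH factors and a target gene, averaged 9.24 ± 0.909 CPM in SETDB1-KO cells and 1.27 ± 0.223 CPM in control cells. GPC4, a glypican that can present WNT ligands, averaged 6.64 ± 0.713 CPM in SETDB1-KO cells and 0.9995 ± 0.0104 CPM in control cells. The log2 fold changes of ID2 and GPC4 were 2.87 ± 0.13 and 2.72 ± 0.14 (adjusted p in edgeR = 3.98e-13 and 1.92e-12).

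Among genes of the list that reached 1 CPM in a group mean, the steepest falls were in BAMBI, NRCAM and WIF1. BAMBI, which encodes a decoy receptor in TGF-beta signalling, averaged 0.149 ± 0.0961 CPM in SETDB1-KO cells and 1.51 ± 0.168 CPM in control cells (log2 fold change -3.28 ± 0.31, adjusted p in edgeR = 1.83e-08), from 15 counts in the knockout group, under the filter. NRCAM, a cell adhesion gene, averaged 0.524 ± 0.187 CPM in SETDB1-KO cells and 2.47 ± 0.151 CPM in control cells, at -2.22 ± 0.21 on the log2 scale (adjusted p in edgeR = 1.68e-08). WIF1, a secreted protein that binds WNT ligands, averaged 0.805 ± 0.104 CPM in SETDB1-KO cells and 3.14 ± 0.188 CPM in control cells (log2 fold change -1.95 ± 0.16, adjusted p in edgeR = 3.16e-09).

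Among the co-receptors and antagonists of the list, KREMEN2 and LRP4 were singled out after their values were seen. KREMEN2, which encodes a receptor for DKK proteins, averaged 13.9 ± 1.33 CPM in SETDB1-KO cells and 2.46 ± 0.337 CPM in control cells (log2 fold change 2.48 ± 0.11, adjusted p in edgeR = 2.13e-13). LRP4, a relative of LRP5 and LRP6 that can hold back WNT signalling, averaged 40.2 ± 1.39 CPM in SETDB1-KO cells and 12.3 ± 1.47 CPM in control cells (log2 fold change 1.71 ± 0.07, adjusted p in edgeR = 1.57e-13).

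By class, the further target genes fell in 15 and rose in 4 of 23 tested, with a median log2 fold change of -0.48. Falls were thus 65.2% and rises 17.4%, beside 31.6% and 31.9% of all genes tested, and 4 of the 23 cleared the filter only in control cells and 2 only in SETDB1-KO cells. They include CCND1, JUN, FOSL1 and CD44 at -0.50, -0.85, -0.48 and -1.10, and MYC at 0.06 with no call (adjusted p in edgeR = 0.332), which was -0.26 and called with the neighbourhood median taken out (adjusted p in edgeR = 3.16e-04); these 5 were named after their values were seen, and other pathways also act on them. With the neighbourhood median taken out, 14 of the further target genes were lower and 5 higher, PLAUR among the higher ones. The other classes held 1 to 16 genes tested, and 63.5% of all genes tested were called. Genes of the planar polarity and calcium branch rose in 7 and fell in 3 of 14, and the destruction complex class rose in 3 and fell in 8 of 14. With the neighbourhood median taken out, BTRC, TNKS2, USP34 and CTNNB1 of that class lost their calls, CSNK1E gained one, and GSK3A moved to -0.12 from -0.95. In the planar polarity and calcium class the same step lost 3 calls, those of CELSR3, CAMK2G and FUZ, and 3 were gained. Nuclear cofactors rose in 6 and fell in 8 of 16, dishevelled and its regulators rose in 3 and fell in 2 of 8, and 4 of 5 further co-receptors rose while 1 fell. Taking the neighbourhood median out lost 2 calls and gained 1 among the nuclear cofactors. DVL2 of the dishevelled class moved to -0.12 from 0.64 and lost its call. Of 6 other antagonists 2 rose and 3 fell; of 3 genes for ligand secretion 1 rose and 1 fell, and RSPO4, the only R-spondin tested, fell by 0.79 on the log2 scale but was -0.36 and not called with the neighbourhood median taken out (adjusted p in edgeR = 0.0527).

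**Figure D5:**
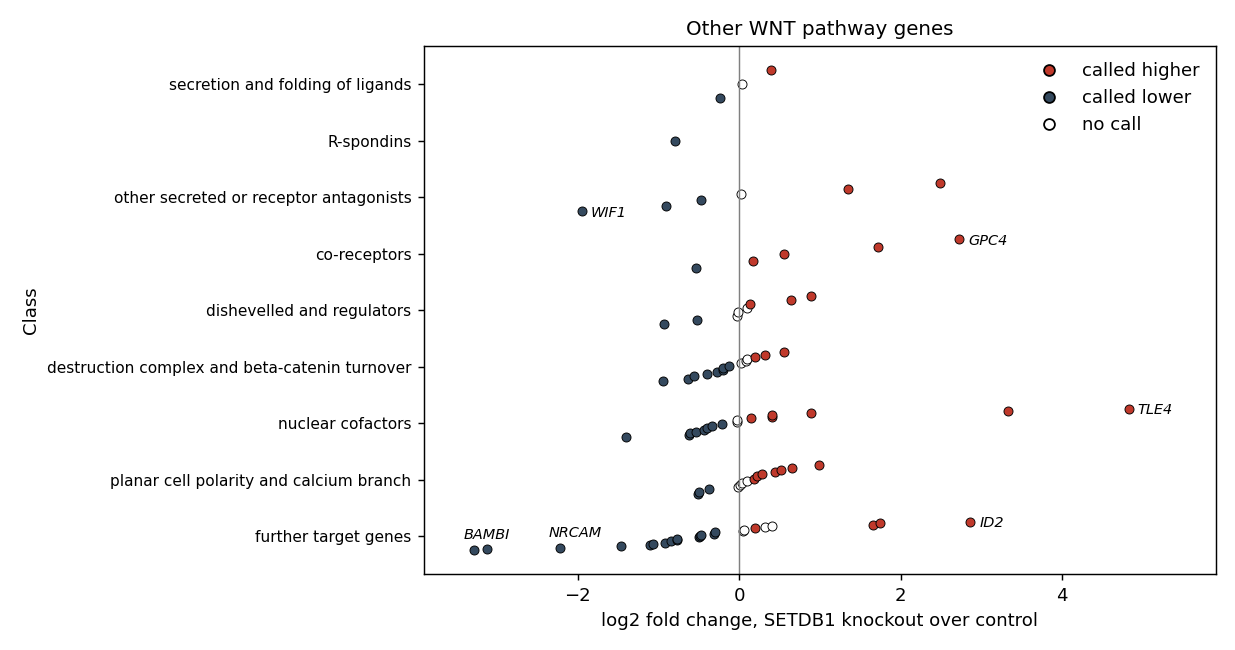
The log2 fold change (SETDB1 knockout over control) of 90 further WNT pathway genes is shown by class, 1 point per gene, red where called higher, dark where called lower and open where not called. The further target genes lie mostly to the left of 0 (15 lower, 4 higher), and TLE4 at 4.82 is the farthest to the right.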

How the data were processed

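RNA-seq counts of 3 SETDB1-knockout and 3 control libraries of H1299 cells were analysed, with groups and replicate numbers from the sample titles. Raw counts of reads for each gene stood in 1 deposited table. FastQC, TopHat2, HTSeq and GRCh38.p7 are named in the submitters' processing notes; no source used here gives settings or strand. The smallest row maximum was 11 counts. Total counts ranged from 29532057 to 35941288, and precision falls where a gene has few counts. Per the labels' protocols, libraries were made from total RNA with an Illumina TruSeq kit.

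Identifiers were matched without version to GENCODE 29 (GRCh38), which gave names, coordinates and exon length for levels per kb; 18576 of 18677 rows matched. Counts were tested in R 4.3.3 with edgeR 4.0.16: filterByExpr (17675 genes kept, 1002 removed), TMM factors (0.976 to 1.02), robust quasi-likelihood fits, Benjamini-Hochberg adjustment over all genes and a threshold of 0.05. CPM used TMM-scaled totals. The steps were tested on simulated counts. Counts of replicate pairs deviated beyond sampling noise (chi-square over degrees of freedom 2.32 to 10.3), so each library was kept as its own sample.

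Members and lists were chosen with earlier results of these data known. Values in every library are given for members called with at least 2-fold change and for the member of each role with the highest level per kb. Of the further list, the 3 largest called rises and falls reaching 1 CPM are named, with CTNNB1 and WLS. Alternatives tried were scaling by DESeq2 size factors or by library size alone, dropping the filter or asking for 1 CPM in 3 libraries, DESeq2 1.42.0, limma-voom (limma 3.58.1), glmTreat with a fold of 1.5, a replicate block, the neighbourhood median taken out (25 genes on each side, log2 CPM above 3) and each library left out. Promoter windows are from RefSeq (GRCh38.p14).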

Additional observations from a re-analysis of the deposited data

How the results depend on the processing

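Members called numbered 12 to 15 higher and 16 to 19 lower under 14 of the 15 alternatives. The test against a fold of 1.5 left 8 higher and 10 lower members, 1556 higher and 1496 lower of all genes, and 12 higher and 12 lower of the further list, since it asks for a larger change. Leaving out each library in turn gave 13 to 15 higher and 17 to 19 lower members, and 28 of the 33 called members kept their call in all 6 fits. The sign turned only for 4 members with no call, which lie near 0. With the neighbourhood median taken out, FZD3 stood at -0.12, LRP5 at -0.0164 and LRP6 at -0.12. AXIN1 was at 0.0395 with library size alone, 0.00382 with at least 1 CPM in 3 libraries, 0.00147 with limma-voom and 1.33e-05 with the replicate block; the cause was not tested. Without single libraries LRP5 ran from -0.0644 to 0.105 and AXIN1 from -0.0608 to 0.0362. Deviations of same-numbered libraries had correlations of 0.0878, -0.0628 and 0.0248, beside -0.133 to 0.123 for libraries of different numbers. No pairing by number was thus seen, but with 3 libraries in each group the check cannot exclude one. With the replicate block 14 members were higher and 19 lower. No scaling moved the median of all genes by more than 0.1 on the log2 scale. Under 1 CPM, where WNT10A, WNT7B, WNT5A, FZD8, NKD1, NKD2, NOTUM, RNF43 and SP5 lie in at least 1 group, few counts limit the precision.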
